A study of Homo sapiens with 4 samples.

Results

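The 36 genes described here encode aminoacyl-tRNA synthetases, the enzymes that join each amino acid to its transfer RNA. They were taken by symbol from the deposited table of 57820 genes. Of the 36, 20 encode enzymes of the cytosol and 16, whose symbols end in 2, encode enzymes of mitochondria. Each symbol occurred once, and all 36 were among the 14616 genes that passed the filter on low counts. The cells were U87, a human glioma line in long use, and carried a short hairpin RNA against GLUD1 (shGlud1) or a control hairpin (shNT), with 2 RNA libraries in each group. Every library came from cells given low glucose for 6 h, in medium with 10% bovine calf serum, so both groups share that treatment and no other glucose level was compared. GLUD1 encodes mitochondrial glutamate dehydrogenase, and the question the design poses is what its knockdown changes under low glucose. The labels name 1 hairpin per group and do not say whether the libraries of a group are separate cultures. The p-values therefore rest on the spread between these 4 libraries alone, and that spread may be technical.

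Synthetases fall into class I and class II by the fold of their catalytic domain. In the cytosol, 8 of the enzymes assemble with the scaffold proteins AIMP1, AIMP2 and EEF1E1 into the multisynthetase complex, and the others act outside it. A separate set, encoded in the nucleus and imported, charges transfer RNA inside mitochondria, although GARS and KARS each serve both compartments. When amino acids run short or the endoplasmic reticulum is stressed, phosphorylation of the initiation factor eIF2 favours translation of ATF4, a transcription factor that activates many cytosolic synthetase genes along with genes of amino acid synthesis and uptake.

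Library totals were 16546849 to 18537314 expected counts. Levels are given in CPM, counts relative to library size as scaled with TMM factors, and a log2 fold change is that of shGlud1 over shNT with its standard error (SE). A gene was called risen or fallen where the adjusted p of edgeR's quasi-likelihood test, adjusted by the Benjamini-Hochberg method over all 14616 genes, was under 0.05. GLUD1 itself had 78.1 and 76.5 CPM in shNT and 34.0 and 44.5 CPM in shGlud1, a log2 fold change of -0.98 (SE 0.13, adjusted p = 1.26e-12). Of the 8 glioma line markers, VIM and CD44 were abundant, VIM (log2 fold change 0.99), NES (1.93) and SOX9 (0.70) rose, SOX2 was at 0 in every library, and GFAP, S100B and OLIG2 were at most 0.392 CPM. Summed levels of leukocyte markers were 2.93 and 2.75 CPM in shNT and 0.05 and 0.608 CPM in shGlud1, nearly all from CD14, with the leukocyte marker PTPRC at most 0.0733 CPM. Endothelial markers (VWF and CDH5, as PECAM1 had no row) and epithelial markers each summed to under 1 CPM. Neuron markers summed to between 5.23 and 8.59 CPM, of which RBFOX3, at under 1 CPM in shNT, rose. Their part in the results was not tested.

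Promoters of the genes were read from RefSeq windows (GRCh38.p14) that run from 250 bases before to 50 bases after each start, and 30 of the 36 genes were matched. The letters TGATGNAA, the response element bound by ATF4, were searched on both strands and can share at most 1 end letter with the CCAAT box, the other motif read. They occurred in 7 of 16 matched cytosolic genes (43.8%), in 1 of 14 mitochondrial genes (7.14%) and in 4.46% of all 27305 genes in the table. The 8 matches are shown because these genes moved in different directions. Each line holds 30 bases, 5′ to 3′ on the strand that spells the motif, with the matching letters in capitals.
AARS: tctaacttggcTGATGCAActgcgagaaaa
CARS: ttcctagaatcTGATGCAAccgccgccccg
GARS: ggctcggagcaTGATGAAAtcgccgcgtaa
IARS: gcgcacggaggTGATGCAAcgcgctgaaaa
MARS: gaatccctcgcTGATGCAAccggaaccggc
NARS: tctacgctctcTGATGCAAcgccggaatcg
TARS: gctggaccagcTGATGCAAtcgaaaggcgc
YARS2: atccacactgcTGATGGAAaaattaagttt

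The positions are chr16:70289675-70289704 (plus strand) for AARS, chr11:3057407-3057436 (plus) for CARS, chr7:30594834-30594863 (minus) for GARS and chr9:92293692-92293721 (plus) for IARS. For MARS the position is chr12:57488053-57488082 (minus), for NARS chr18:57621804-57621833 (minus), for TARS chr5:33440956-33440985 (minus) and for YARS2 chr12:32756076-32756105 (minus). Of these 8 genes, GARS, IARS, NARS and TARS rose in shGlud1, AARS and CARS fell, and MARS and YARS2 were not called. The letters were found in 4 of 10 matched genes that rose (40%), 2 of 8 that fell (25%) and 2 of 12 not called (16.7%). The CCAAT box, also read on both strands, was found in 5 of 10 that rose, 4 of 8 that fell and 7 of 12 not called, against 39.7% of all genes. A match describes letters in the window and does not show that a factor bound there.

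The synthetase genes did not move as a block. In shGlud1, 12 of the 36 rose (33.3%, against 31.9% of all genes tested), 10 fell (27.8%, against 29.1%) and 14 were not called. Both shares were near those of all genes. The median log2 fold change of the 36 was 0.09, beside 0.06 for all genes. In 32 of the 36 (88.9%) the CPM of the groups did not overlap, which was so for 81% of all genes tested. Fold changes ran from -1.21 (FARSA) to 1.96 (IARS2).

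**Figure D1:**
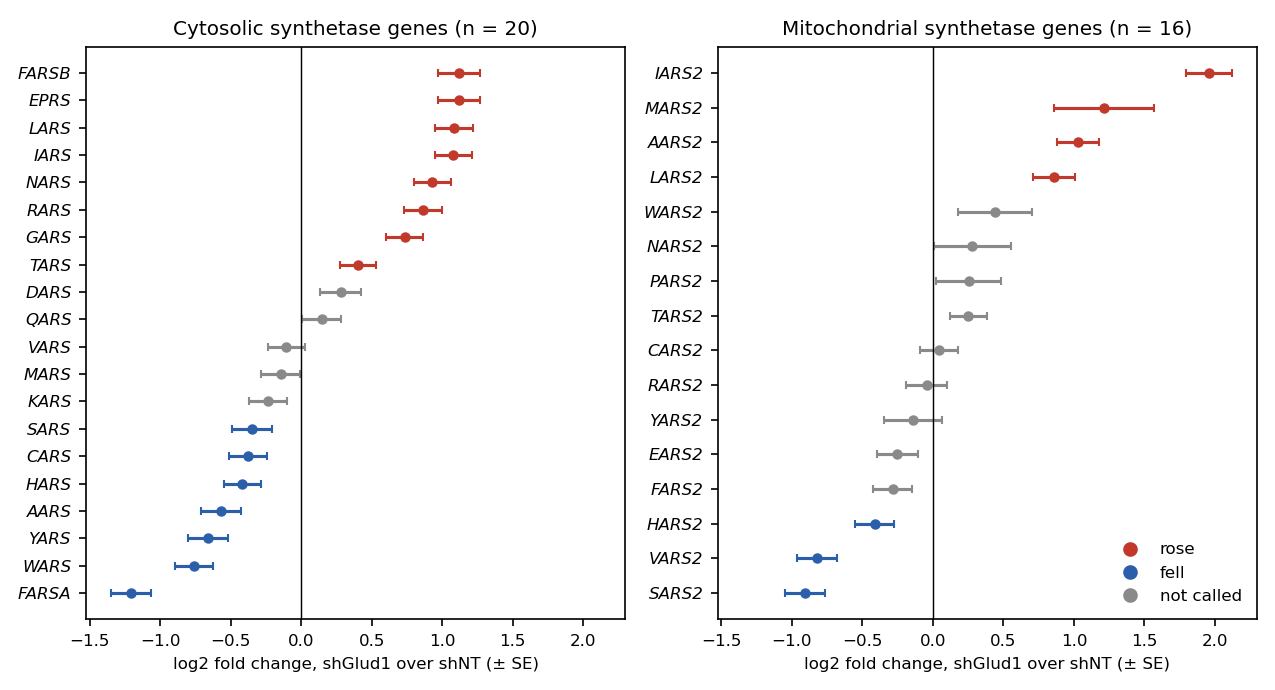
Log2 fold change of shGlud1 over shNT with its SE for the 20 cytosolic genes (left) and 16 mitochondrial genes (right), coloured by call. Both compartments hold genes that rose and genes that fell, with IARS2 highest at 1.96 and FARSA lowest at -1.21.

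Among the 20 cytosolic genes 8 rose (40%), 7 fell (35%) and 5 were not called, with a median log2 fold change of 0.02. Among the 16 mitochondrial genes 4 rose (25%), 3 fell (18.8%) and 9 were not called, with a median of 0.15. Of all genes tested 31.9% rose and 29.1% fell. The difference between the medians was -0.13, cytosolic minus mitochondrial, and it has no test because genes are not replicates. Without shNT replicate 1 the difference was -0.02, and 3 cytosolic genes fell in place of 7. The split depended on the scaling. With total counts in place of TMM factors the median of all genes moved from 0.06 to 0.57, 13 cytosolic genes rose and 2 fell, and 10 mitochondrial genes rose and 1 fell, against 51.9% of all genes risen and 13.7% fallen. Directions given here are therefore relative to the bulk of the genes.

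Summed over the 20 cytosolic genes, levels were 3620 and 3409 CPM in shNT and 2964 and 3021 CPM in shGlud1. The same genes took 0.299% and 0.288% of all unscaled counts in shNT and 0.341% and 0.376% in shGlud1, so the order of the groups turned with the scaling. The 16 mitochondrial genes summed to 574 and 551 CPM in shNT and 595 and 577 CPM in shGlud1. Their share of unscaled counts was 0.0473% and 0.0466% in shNT and 0.0684% and 0.0717% in shGlud1. Cytosolic genes thus held the larger part of synthetase counts in all 4 libraries.

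Of the 8 genes of the multisynthetase complex, EPRS, LARS, IARS and RARS rose (50%, against 31.9% of all genes tested). By the test described above none fell, against 29.1% of all genes. DARS, QARS, MARS and KARS were not called, at log2 fold changes of 0.28, 0.14, -0.15 and -0.24. The median of the 8 was 0.57. These genes had a median GC content of 43.4%, and of all genes under 50% GC 40.5% rose. EPRS, whose protein carries both the glutamate and the proline activity, had 15.97 and 18.4 CPM in shNT and 35.3 and 39.4 CPM in shGlud1. Both shGlud1 libraries lay above both shNT libraries, at a log2 fold change of 1.12 (SE 0.15, adjusted p = 8.52e-13). EPRS (ENSG00000136628) lies at chr1:219968601-220046658 on the minus strand (GENCODE 29, GRCh38).

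LARS, which charges leucine, had 32.4 and 35.9 CPM in shNT and 64.0 and 81.1 CPM in shGlud1. IARS, which charges isoleucine, had 64.0 and 71.7 CPM in shNT and 132 and 154 CPM in shGlud1. Neither gene's groups overlapped, and shGlud1 replicate 2 was the highest library for each. The log2 fold change of LARS was 1.09 (SE 0.13, adjusted p = 7.05e-15) and that of IARS was 1.08 (SE 0.13, adjusted p = 2.82e-15). RARS, for arginine, rose with a log2 fold change of 0.86, from 28.5 and 36.9 CPM to 58.2 and 60.8 CPM.

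KARS, the lysine enzyme gene that supplies both cytosol and mitochondria, had 243 and 233 CPM in shNT and 204 and 200 CPM in shGlud1. Its groups did not overlap, yet its log2 fold change of -0.24 (SE 0.14) was not called (adjusted p = 0.12). It was called fallen with DESeq2, and under total counts its sign turned, to 0.28. GARS, the glycine enzyme gene that also serves both compartments, is no member of the complex and rose from 69.6 and 70.8 CPM to 109 and 125 CPM. This was a log2 fold change of 0.73 (SE 0.13, adjusted p = 8.04e-08). So the genes shared between the compartments had opposite signs, of which that of GARS was called.

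Of the 12 cytosolic genes outside the complex, 4 rose (33.3%, against 31.9% of all genes) and 7 fell (58.3%, against 29.1%). VARS was not called (-0.11). The median of the 12 was -0.36. The fallen genes were FARSA, WARS, YARS, AARS, HARS, CARS and SARS, and the risen genes FARSB, NARS, GARS and TARS. With edgeR, TMM factors, all 4 libraries and no trend removed, falling genes outnumbered rising ones outside the complex and none fell inside it. This contrast was not tested. Inside the complex 1 gene fell with the length trend removed, and 2 fell with length and GC trends removed. Under total counts the order turned, with 5 rises and 2 falls outside the complex and all 8 genes inside it risen. Without shNT replicate 1 the falls of AARS, HARS, CARS and SARS were not called.

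FARSA and FARSB encode the alpha and beta subunits of a single phenylalanine enzyme, which needs both chains. They received opposite calls. FARSA (ENSG00000179115, chr19:12922479-12934037, minus strand) had 399 and 413 CPM in shNT and 183 and 167 CPM in shGlud1. Its groups were far apart, at a log2 fold change of -1.21 (SE 0.14, adjusted p = 1.56e-16). FARSB (ENSG00000116120, chr2:222570536-222656337, minus strand) had 17.5 and 18.2 CPM in shNT and 35.8 and 42.0 CPM in shGlud1. Here the shGlud1 libraries were the high ones, with a log2 fold change of 1.12 (SE 0.15, adjusted p = 4.71e-13).

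The ratio of FARSA to FARSB, each divided by its longest transcript, was 37.4 and 37.1 in shNT and 8.40 and 6.53 in shGlud1. A ratio within a library does not depend on the scaling between libraries, but no trend on length or GC content was removed from it. The subunit transcripts were thus closer to each other in both shGlud1 libraries, with FARSA the more abundant in all 4. Both calls held under all 14 alternative settings.

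NARS, which charges asparagine, had 64.97 and 83.1 CPM in shNT and 129 and 153 CPM in shGlud1. The groups were separate, at a log2 fold change of 0.93 (SE 0.13, adjusted p = 9.75e-12). TARS, for threonine, rose less, with a log2 fold change of 0.40 (SE 0.13, adjusted p = 4.19e-03). It was the only risen synthetase gene that lost its call under any alternative. It was not called with DESeq2, without shNT replicate 1 (0.23), with the length trend removed (0.14) or with length and GC trends removed (-0.10).

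WARS, the tryptophan enzyme gene, which interferon is known to induce, had 290 and 258 CPM in shNT and 163 and 160 CPM in shGlud1. The shGlud1 libraries lay well below, with a log2 fold change of -0.76 (SE 0.14, adjusted p = 1.04e-07). YARS, for tyrosine, had 413 and 365 CPM in shNT and 251 and 241 CPM in shGlud1. AARS, for alanine, had 480 and 436 CPM in shNT and 308 and 310 CPM in shGlud1. In both genes shNT replicate 1 was the highest library and the groups did not overlap. The log2 fold change was -0.66 for YARS (SE 0.14, adjusted p = 9.26e-06) and -0.57 for AARS (SE 0.14, adjusted p = 1.98e-04). Under total counts neither YARS nor AARS was called, at -0.14 and -0.05.

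CARS, for cysteine, and SARS, for serine, fell less, with log2 fold changes of -0.38 and -0.35 and adjusted p of 8.81e-03 and 0.0245. Neither was called when either shNT library was left out, and both signs turned under total counts, to 0.14 and 0.17.

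**Figure D2:**
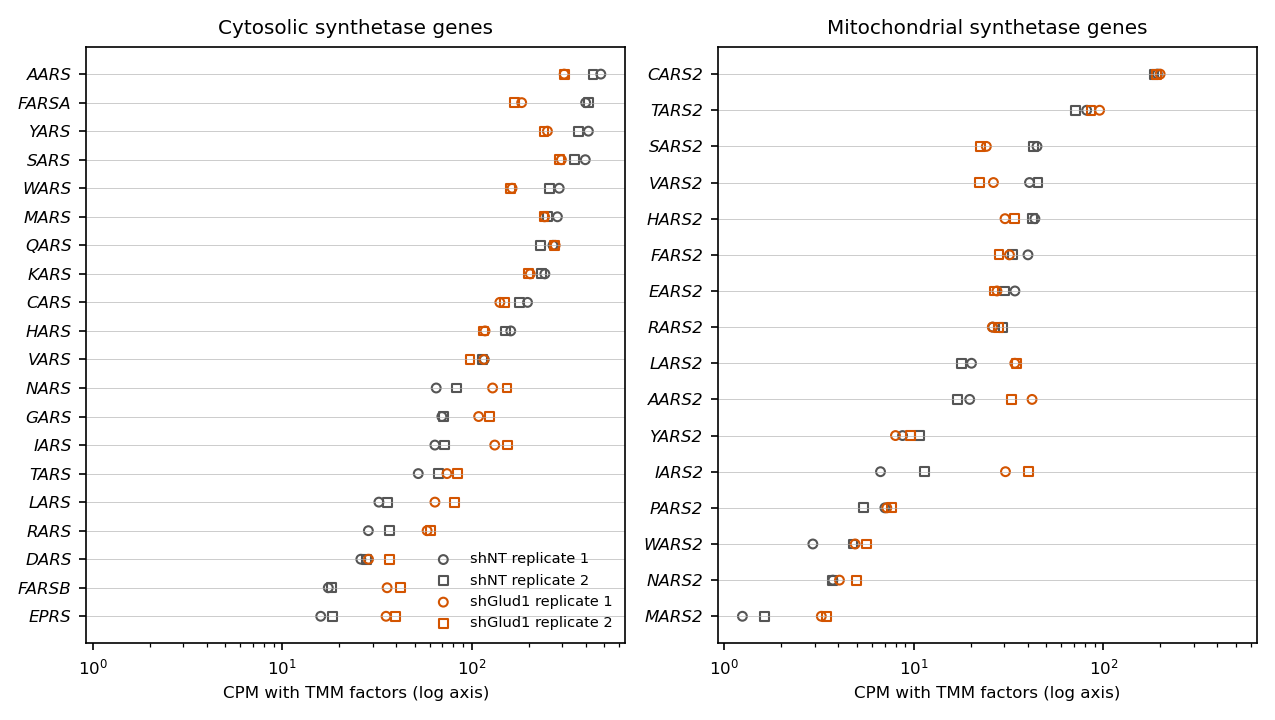
Level of each synthetase gene in the 4 libraries, in CPM with TMM factors on a log axis, with genes ordered by their shNT level (cytosolic left, mitochondrial right). AARS at the top of the left panel falls from 480 and 436 to 308 and 310 CPM, and EPRS at its foot rises from 15.97 and 18.4 to 35.3 and 39.4 CPM.

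HARS and HARS2, for histidine in cytosol and mitochondria, are divergent neighbours on chromosome 5. Their RefSeq starts lie 85 bases apart, at 140691370 on the minus strand for HARS and 140691455 on the plus strand for HARS2. The 84 bases between them are shown because the genes on either side fell by nearly equal amounts with edgeR, TMM factors and no trend removed. They lie at chr5:140691371-140691454 (plus strand, GRCh38.p14), and neither gene's window holds either an ATF4 element or a CCAAT box.
HARS and HARS2: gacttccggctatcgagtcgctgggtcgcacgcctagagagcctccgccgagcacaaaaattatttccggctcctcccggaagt

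HARS had 161 and 151 CPM in shNT and 118 and 115 CPM in shGlud1. HARS2 had 43.5 and 42.1 CPM in shNT and 30.3 and 33.9 CPM in shGlud1. Both shGlud1 libraries lay below both shNT libraries for each gene. The log2 fold change was -0.42 for HARS (SE 0.13, adjusted p = 3.18e-03) and -0.41 for HARS2 (SE 0.14, adjusted p = 5.44e-03). With the length trend removed the genes stood apart, with HARS still called at -0.55 and HARS2 not called at -0.27. Neither was called without shNT replicate 1, and under total counts they stood at 0.10 and 0.11. Their proteins are closely similar, and in GENCODE 29 the span of HARS (140673904 to 140691862) overlaps that of HARS2 (140691426 to 140699318) on the opposite strand. The library kit does not mark strand and both genes had counts that were not whole, so how shared reads were divided could affect either value.

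Among mitochondrial genes, IARS2, for isoleucine, rose most of the 16. It had 6.67 and 11.4 CPM in shNT and 30.4 and 40.1 CPM in shGlud1. The lowest shGlud1 library was above the highest shNT library by a wide margin, at a log2 fold change of 1.96 (SE 0.17, adjusted p = 5.46e-30). IARS2 (ENSG00000067704) lies at chr1:220094102-220148041 on the plus strand, close to EPRS. These values rested on 91 and 174 counts in shNT and 609 and 924 counts in shGlud1.

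AARS2, for alanine, had 19.7 and 17.1 CPM in shNT and 42.0 and 32.8 CPM in shGlud1. LARS2, for leucine, had 20.1 and 17.9 CPM in shNT and 34.1 and 34.8 CPM in shGlud1. MARS2, for methionine, had 1.25 and 1.63 CPM in shNT and 3.25 and 3.47 CPM in shGlud1. Each of these 3 genes was higher in both shGlud1 libraries. The log2 fold change was 1.03 for AARS2 (SE 0.15, adjusted p = 4.39e-11), 0.86 for LARS2 (SE 0.15, adjusted p = 4.99e-08) and 1.21 for MARS2 (SE 0.35, adjusted p = 1.42e-03). MARS2 was the least abundant of the 36, with 17 and 25 counts in shNT and 65 and 80 in shGlud1.

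SARS2, for serine, had 44.6 and 42.8 CPM in shNT and 24.1 and 22.5 CPM in shGlud1. VARS2, for valine, had 40.8 and 45.2 CPM in shNT and 26.3 and 22.3 CPM in shGlud1. Both were lower in each shGlud1 library, with log2 fold changes of -0.91 (SE 0.14, adjusted p = 9.46e-10) and -0.83 (SE 0.14, adjusted p = 2.58e-08). With HARS2 they were the mitochondrial genes that fell. Under total counts VARS2 was not called, at -0.31.

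The other 9 mitochondrial genes were not called. CARS2, the most abundant of the mitochondrial genes, had 193 and 185 CPM in shNT and 199 and 190 CPM in shGlud1. Its groups overlapped, with a log2 fold change of 0.05. WARS2, NARS2, PARS2 and TARS2 had values of 0.44, 0.28, 0.25 and 0.25, and RARS2, YARS2, EARS2 and FARS2 had values of -0.04, -0.14, -0.25 and -0.29. EARS2 puts glutamate on both glutamate and glutamine transfer RNA in mitochondria, where an amidotransferase then makes the glutamine form.

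By catalytic class, 3 of 9 cytosolic class I genes rose and 3 fell (33.3% each). Among 10 class II genes 4 rose and 4 fell (40% each). Of all genes tested 31.9% rose and 29.1% fell. EPRS holds a domain of each class and rose. In mitochondria 3 of 9 class I genes rose (33.3%) and 1 fell (11.1%), while 1 of 7 class II genes rose (14.3%) and 2 fell (28.6%). Class did not divide risen from fallen genes in the cytosol.

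The 12 cytosolic genes known from general knowledge as ATF4 targets also divided. EPRS, GARS, IARS, LARS, NARS and TARS rose (50%, against 31.9% of all genes tested). AARS, CARS, SARS, WARS and YARS fell (41.7%, against 29.1%), and MARS was not called. The median log2 fold change of the 12 was 0.13, beside 0.02 for the other 8 cytosolic genes. Of these 8, RARS and FARSB rose (25%) and FARSA and HARS fell (25%). Thus known targets were found in both directions.

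A one-to-one partner in the other compartment existed for 13 cytosolic genes. Of these 13 amino acids, isoleucine and leucine had both genes risen, and histidine and serine had both fallen. Alanine alone had opposite calls, with AARS at -0.57 and AARS2 at 1.03. In the other 8 a single gene was called. The signs of the estimates were the same in 8 of the 13. Methionine and tryptophan were also wide apart, with MARS at -0.15 and MARS2 at 1.21, and WARS at -0.76 and WARS2 at 0.44. Across the 13 amino acids, which share libraries, Pearson's r of cytosolic and mitochondrial fold change was 0.39, given as a description.

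**Figure D3:**
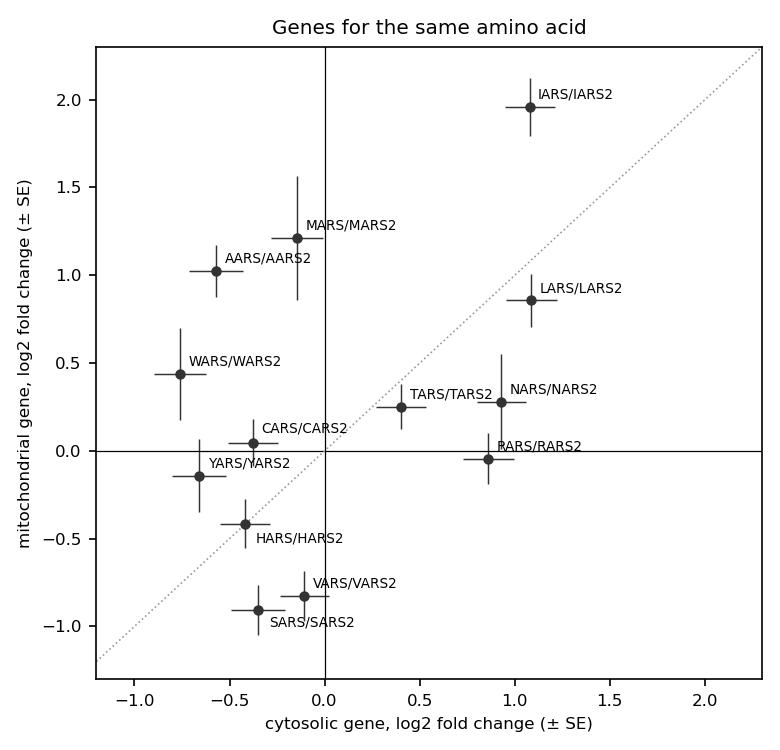
Log2 fold change (± SE) of the cytosolic gene (horizontal) and the mitochondrial gene (vertical) for the 13 amino acids with 1 gene in each compartment; the dotted line marks equal values. IARS/IARS2 lies at the upper right (1.08 and 1.96) and AARS/AARS2 at the upper left (-0.57 and 1.03).

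Per kilobase of longest transcript, the cytosolic gene was the more abundant in shNT for 10 of the 13 amino acids. The ratio of cytosolic to mitochondrial level ran from 0.495 for threonine to 156 for methionine, with a median of 5.75. Threonine, cysteine and arginine were the amino acids with a ratio under 1, that of arginine being 0.996. The longest transcript need not be the one expressed. For cysteine the mean shNT levels were 188 CPM (CARS) and 189 CPM (CARS2), with longest transcripts of 5732 and 3516 bases. The cysteine ratio therefore rests on the lengths used.

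Starting level and direction ran together. Cytosolic genes that rose had 3.43 to 26.6 CPM per kilobase in shNT, and those that fell had 32.8 to 199, without overlap. In the mitochondrial set the risen genes had 0.477 to 4.77 and the fallen genes 7.10 to 21.3 CPM per kilobase. Within each compartment every risen gene thus started below every fallen one. Genes not called spanned 1.37 to 98.3 and lay at both ends of the mitochondrial set, with CARS2 (53.7) and TARS2 (27.9) above every fallen gene and WARS2 (1.37) below all risen genes but MARS2. The shNT level enters the fold change, so this is a description. By the mean of all 4 libraries the cytosolic ranges met, at 5.44 to 35.5 for risen genes and 29.03 to 177 for fallen genes. The mitochondrial ranges met too, at 0.795 to 7.24 and 5.55 to 16.3.

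The spread of levels was smaller in shGlud1. The highest cytosolic level per kilobase was 57.9 times the lowest in shNT and 20.9 times in shGlud1, and in mitochondria 113 times and 49.8 times. Summed CPM of the 8 risen cytosolic genes went from 374 to 688, and of the 7 fallen from 2244 to 1446. Those sets were chosen by their calls in the same libraries, so the direction of each sum was fixed in advance. Spearman's rho between fold change and the mean level per kilobase was -0.80 over 20 cytosolic genes, -0.47 over 16 mitochondrial genes and -0.31 over 14266 genes with a transcript length, all read from the same libraries.

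Base composition of the transcripts moved with the calls. The 12 risen genes had a median GC content of 43.7% in their longest transcript, the 10 fallen genes 52.7% and the 14 not called 52.0%. Of the 18 members under 50% GC, 10 rose and 2 fell, and of the 18 at 50% or over, 2 rose and 8 fell. LARS2 and AARS2, at 50.8% and 59.3%, were the risen genes above that mark, and HARS and HARS2, at 46.8% and 49.9%, the fallen genes below it. Genes of the complex had a median GC content of 43.4%, against 51.6% for cytosolic genes outside it. FARSB and FARSA stood at 41.6% and 60.3%.

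The same leaning was present in all genes. Of 7651 genes under 50% GC, 40.5% rose and 19.6% fell, and of 6615 genes at or over it, 22.2% rose and 40.4% fell. Spearman's rho between fold change and GC content was -0.60 over the 36 members, -0.71 over the cytosolic and -0.41 over the mitochondrial genes, and -0.27 over all genes. For transcript length it was 0.21 over the members and 0.45 over all genes. After smooth trends of counts on length and GC content were removed from each library, 9 cytosolic genes rose and 8 fell, and 6 mitochondrial genes rose and 5 fell, against 27.6% of all genes risen and 28.4% fallen. EPRS, LARS and IARS then had log2 fold changes of 0.52, 0.57 and 0.52, FARSA -0.68 and SARS2 -0.34, all still called. SARS was not called, at -0.01, and TARS stood at -0.10. The part of composition in the calls beyond this adjustment was not tested.

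**Figure D4:**
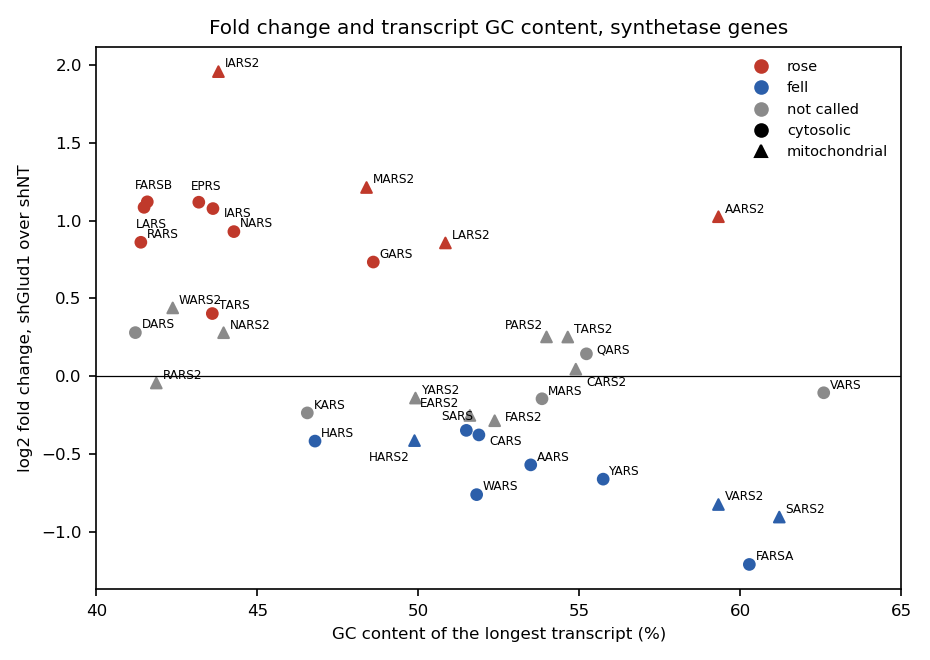
Log2 fold change of each synthetase gene against the GC content of its longest transcript in percent, coloured by call, with circles for cytosolic and triangles for mitochondrial genes. Most risen genes lie under 50% GC and most fallen genes above it, with AARS2 at 59.3% and 1.03 apart from the other risen genes.

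The scaffold genes of the multisynthetase complex were read beside its synthetase genes. None of the latter was called fallen with edgeR, TMM factors, all 4 libraries and no trend removed. AIMP1, AIMP2 and EEF1E1 all fell, with log2 fold changes of -0.62, -0.78 and -1.03. EEF1E1 went from 42.6 and 37.9 CPM in shNT to 20.5 and 19.0 CPM in shGlud1, AIMP2 from 52.8 and 56.6 to 32.2 and 31.6, and AIMP1 from 42.4 and 47.8 to 31.2 and 27.6. All 3 groups were separate. Under total counts 1 of the 3 fell, and 2 did after removal of the length trend. Some synthetase genes of the complex were also called fallen under alternatives, KARS (-0.27) and MARS (-0.24) with length and GC trends removed, MARS with the length trend removed (-0.30), and KARS with DESeq2 (-0.29) and without shGlud1 replicate 1 (-0.26).

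Among 10 tested genes of other charging and editing steps, 5 fell (50%, against 29.1% of all genes), with a median of -0.12. AARSD1, which clears mischarged alanine transfer RNA, PSTK, a kinase of the selenocysteine pathway, and DTD1, a D-aminoacyl-tRNA deacylase, had values of -1.13, -1.47 and -0.74 and fell. Under total counts rises outnumbered falls, 5 to 2, at a median of 0.40, and without shNT replicate 1 there were 3 falls.

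Of 21 tested genes of transfer RNA processing and export, 4 rose (19.0%, against 31.9% of all genes) and 8 fell (38.1%, against 29.1%). The median was 0.01. The exporters XPOT (1.23) and XPO5 (1.06) and the mitochondrial RNase P subunit KIAA0391 (1.05) rose. The transfer RNA methyltransferases METTL1 (-1.12) and TRMT1 (-1.03) and the splicing endonuclease subunit TSEN54 (-0.91) fell. Under total counts 11 rose and 3 fell, and without shGlud1 replicate 1 the count of risen genes was 6.

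Other ATF4-driven genes moved mainly downward. Of the 31, 5 rose and 23 fell (74.2%, against 29.1% of all genes), and the median log2 fold change was -0.94, against 0.13 for the 12 synthetase genes known as ATF4 targets. The pseudokinase gene TRIB3 (-3.17), the stress transcription factor gene DDIT3 (-3.39) and the amino acid transporter subunit gene SLC3A2 (-3.56) fell, and XPOT (1.23), VLDLR (1.18) and ALDH18A1 (0.46) rose. Of 25 matched promoters of this list, 7 (28%) held the letters TGATGNAA, including that of SLC3A2. The difference between the list and the synthetase genes was not tested. Under total counts 8 rose and 18 fell, and 3 rose when either shNT library or shGlud1 replicate 2 was left out.

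Of 17 genes for eIF2, its kinases and its control, 10 rose (58.8%, against 31.9% of all genes) and 4 fell (23.5%, against 29.1%), with a median of 0.46. Under total counts 13 rose and 2 fell. The kinase genes EIF2AK4 (1.54), which senses uncharged transfer RNA, and EIF2AK1 (1.23) and the subunit gene EIF2S3 (1.21) rose. ATF4 itself (-1.81), PPP1R15A (-3.18), which recruits the eIF2 phosphatase, and EIF2S1 (-0.64) fell. Without shNT replicate 1 the counts were 7 and 3, and after removal of length and GC trends 7 and 6.

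Of 7 cytosolic elongation factors, which act in synthesis once transfer RNA is charged, EEF1A2 rose (0.83), a share of 14.3% against 31.9% of all genes. The abundant EEF1A1 (0.24) was not called. Another 5 fell (71.4%, against 29.1%), among them EEF1B2 (-1.22), EEF1D (-0.99) and EEF1G (-0.95). Either shNT library left out brought the falls to 3. Of 12 mitochondrial translation factors 4 rose (33.3%, against 31.9% of all genes) and 1 fell (8.33%, against 29.1%). GFM1 (0.94), GFM2 (0.94) and GUF1 (1.00) were among the risen, and TUFM (-0.91), the mitochondrial elongation factor Tu, fell. Under total counts the elongation factors had 2 rises and 3 falls, and the mitochondrial factors 9 rises and 1 fall. The mitochondrial factors had 3 falls with RLE factors. They had 2 with the length trend removed, and 2 with length and GC trends removed. XPOT, PPP1R15A and MTFMT each belong to more than 1 of these lists.

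**Figure D5:**
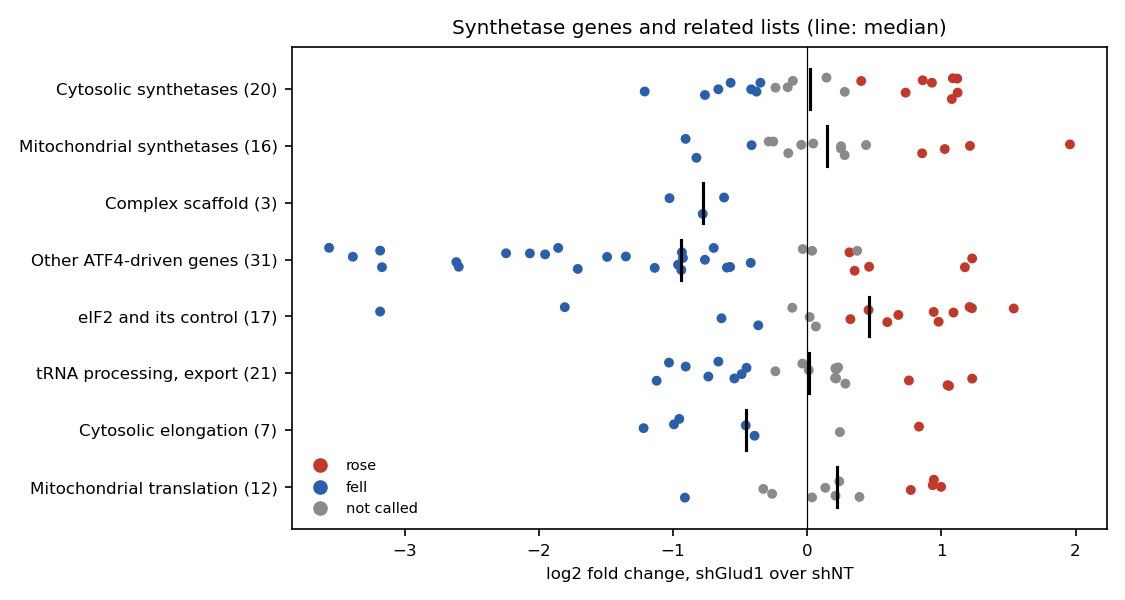
Log2 fold change of each tested gene in the synthetase sets and related lists, coloured by call, with a line at each median and the number of genes in brackets. The synthetase sets spread to both sides of 0 with medians of 0.02 and 0.15, while the other ATF4-driven genes have a median of -0.94.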

How the data were processed

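Poly-A RNA libraries (TruSeq V2, 12 PCR cycles, paired-end, per the labels' protocols) were compared between 2 shNT and 2 shGlud1 samples, grouped by title. The authors deposited expected counts per gene, which need not be whole. Bowtie 0.12.2 and the mouse build mm8 are named per the submitters' processing notes, but the rows carry human gene IDs; what that build was used for, and the counting program, were not given in the sources used here. Of values above 0, 20.1% were not whole, including those of HARS, MARS, WARS, CARS2, HARS2, SARS2 and VARS2 in at least 1 library.

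Counts were rounded. In edgeR 4.0.16 (R 4.3.3), filterByExpr (minimum count 10), TMM factors (shNT 0.826 and 0.845, shGlud1 1.15 and 1.24) and the robust quasi-likelihood test without a block were used. The SE was taken as the size of the log2 fold change over the root of its F statistic, with 2 residual degrees of freedom before moderation. Without molecular identifiers, PCR copies are not independent. Libraries of a group differed by more than sampling noise (chi-square per degree of freedom 5.62 and 13.9). On simulated data with 14616 genes, 1.5-fold, 2-fold and 4-fold changes were placed in 74, 65 and 61 genes. The test recovered 37.8%, 73.8% and 91.8% of them, with 9 false calls. In the real data 31.9% of genes rose and 29.1% fell. The Benjamini-Hochberg cutoff therefore differs, and these rates do not carry over to the real comparison. Alternatives were total counts, upper-quartile and RLE factors, DESeq2 1.42.0, limma 3.58.1 (voom), no filter on counts, at least 1 CPM in 2 libraries, a block for the replicate number, lowess removal (span 0.3) of trends on length, or on length and GC content, and leaving out each library.

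Lengths, GC content and gene positions came from the longest GENCODE 29 transcript by Ensembl ID, and 97.6% of tested genes had one. Promoters came from the RefSeq table. Members and lists were chosen with earlier results of these data known. Values in every library were given by rule for the 5 cytosolic and 4 mitochondrial largest rises and falls, GARS, KARS, HARS, HARS2 and EPRS, and for each related list up to 3 risen and 3 fallen genes by lowest p were named. RARS and CARS2 and the scaffold genes' library values were added after their values were seen. A gene of the other charging and editing list is not reported here. C14orf126, C22orf28 and the marker PECAM1 had no row under those symbols. Protein sequences were not used here. Figures were drawn with matplotlib 3.10.9.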

Additional observations from a re-analysis of the deposited data

How the results depend on the processing

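Of the 12 risen genes, 11 kept their call under all 14 alternatives, the exception being TARS; of the 10 fallen, FARSA, WARS and SARS2 did. Total counts moved the numbers that rose and fell to 13 and 2 (cytosolic) and 10 and 1 (mitochondrial), and turned the estimates of CARS (0.14), HARS (0.10), KARS (0.28), MARS (0.38), SARS (0.17), VARS (0.41), EARS2 (0.27), FARS2 (0.23), HARS2 (0.11), RARS2 (0.48) and YARS2 (0.38). Removing the length trend gave a difference of medians of -0.25 and turned CARS2 (-0.093), RARS2 (0.33), SARS (0.0021) and YARS2 (0.14). Removing length and GC trends gave 5 mitochondrial falls and turned CARS2 (-0.0016), RARS2 (0.12), TARS (-0.10) and YARS2 (0.059). CARS2 was -0.0090 with DESeq2 and with RLE factors, and RARS2 0.0050 without a filter. Total counts moved the median of all genes from 0.06 to 0.57, a shift that works for rises and against falls. YARS and VARS2 lost their fallen calls under that setting alone. The cause of the changes under these alternatives was not tested.

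Leaving out each library in turn gave 3 to 8 cytosolic falls, the fewest without shNT replicate 1, and a difference of medians from -0.11 to -0.0195. Estimates ran from -0.0049 to 0.083 for CARS2, -0.13 to 0.048 for RARS2, -0.28 to 0.016 for YARS2 and -0.25 to 0.0156 for VARS. Deviations of same-numbered libraries had a correlation of 0.03 over only 2 numbers, so the numbers were not taken to pair them; with the replicate block 8 cytosolic genes rose and 7 fell, and 4 mitochondrial genes rose and 4 fell. With 2 libraries a group, small changes can be missed, so genes not called were not shown to be unchanged.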
